A study of Mus musculus with 3 samples.

Results

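Neutrophils sorted from the nose were compared with neutrophils sorted from the blood of mice 1 day after lipopolysaccharide (LPS), the cell wall component of Gram-negative bacteria, had been instilled into the nose. The libraries were taken by sample label, with no measured value in the rule, and are 2 of the 3 libraries of the series, 1 library a side. All mice were wild-type C57BL/6J, 6 to 15 weeks old, and had received LPS through both nostrils (10 µg, in a volume of 10 µL), so the blood group carries the treatment too and no untreated mouse is among the groups. Both libraries were gated as CD45+Ly6G+SiglecF- cells and taken on day 1, which leaves the tissue as the labelled difference between them. The remaining library, nasal double-positive cells (DP, CD45+Ly6G+SiglecF+, from the nose on day 2), enters the filter on low values and is given beside some genes as a further level from the nose. How many mice were pooled in a library is not stated in the labels.

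Neutrophils leave the bone marrow as short-lived, fully formed cells whose granule proteins were mostly made during maturation. In blood they carry receptors for bacterial products and chemokines, roll on vessel walls through selectins and stop through integrins. Once they have crossed into inflamed tissue, signals through Toll-like receptors, cytokine receptors and adhesion switch on NF-kappaB, AP-1 and early growth response factors, and with them genes for chemokines, cytokines, survival proteins and their own feedback inhibitors.

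Each library listed FPKM values, a level per transcript length and sequencing depth, for the same 23234 genes. From the spacing of the lowest values, 1 FPKM over 1 kb of transcript stands for about 13 fragments in the nasal and 54 in the blood library, so a low value rests on about 4 times fewer fragments in the nasal library. Genes at 1 FPKM or more numbered 10460 in nasal and 7706 in blood neutrophils. With 1 library a side there is no replicate error, no test and no p-value, so differences are given as levels and folds and describe these 2 libraries. Paired values are written as nasal against blood, in FPKM, and a gene is called higher or lower by its place in the nose. Of the genes of the gate, Ptprc, which encodes CD45, stood at 137 FPKM in the nasal and 719 in the blood library, and was over 4-fold lower in the nose. Siglec5, an older symbol used for both the SiglecF and the Siglec-E gene, was at 9.92 against 18.7, with 168 FPKM in the SiglecF-gated DP library. The Siglec-E gene has its own entry, Siglece (345 against 362), so Siglec5 is read here as the SiglecF gene. Ly6g was not analysed here, so the Ly6G gate could not be read from its own gene. Csf3r, the receptor for granulocyte colony-stimulating factor and a defining neutrophil gene, was at 607 FPKM in the nasal and 1180.4 in the blood library, and Itgam, which encodes CD11b, was near equal at 137 against 136.

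Of 10719 genes compared (a mean of 1 FPKM or more over the 3 libraries), 1408 were 4-fold or more above blood on the log2(FPKM + 1) scale, 13.1% of those tested, and 346 were 4-fold or more below blood, 3.23% of those tested. At 2-fold the shares were 33.5% higher and 12.8% lower. The median log2 ratio was 0.41, and with ratios centred on it 968 were higher and 609 lower, which shows that the excess of higher genes depends in part on scaling. It depends on genes close to 0 in blood as well. Among the 7223 genes at 1 FPKM or more in both libraries the median was 0.01, and 449 were 4-fold or more above blood and 253 lower. Some of the most abundant genes were past 4-fold. Genes 4-fold or more below blood held 35.3% of all FPKM in blood and 7.25% in nasal neutrophils. Genes 4-fold or more above blood held 2.08% in blood and 39.1% in nasal neutrophils (32.8% without genes listed at 0 in blood). Since FPKM is a share of the library, the large shares taken by a few genes move all others, and fewer cells of a type and less RNA per cell cannot be told apart.

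**Figure D1:**
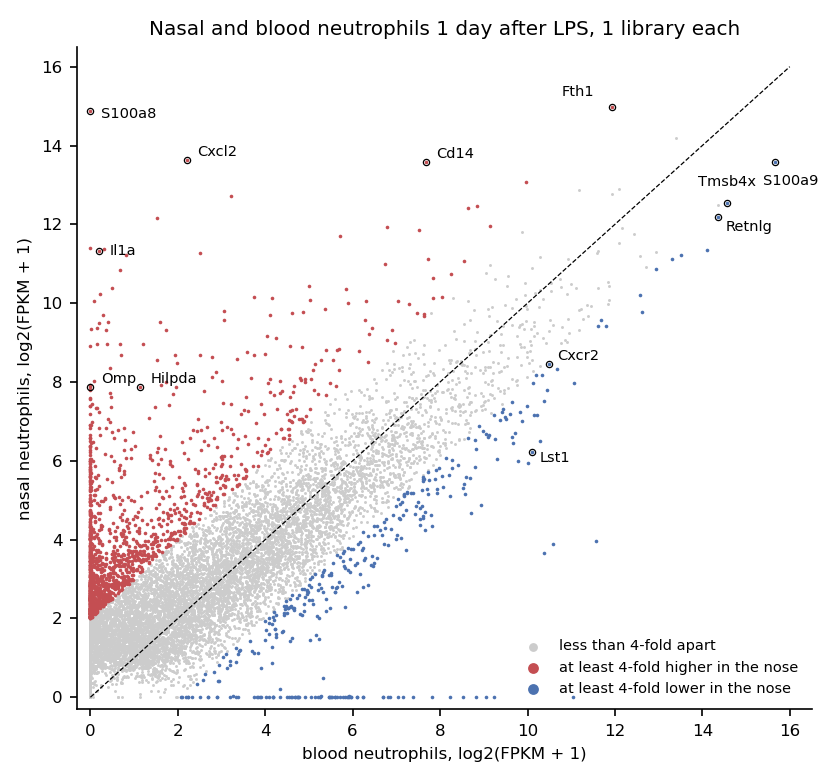
Level of each of the 10719 compared genes in blood (x axis) and nasal neutrophils (y axis) as log2(FPKM + 1), 1 library each, with the 1408 genes 4-fold or more above blood in red and the 346 as far below it in blue. Cxcl2, Il1a and Cd14 lie far above the line of equal values, Cxcr2 and Lst1 below it, and S100a8 is drawn at 0 in blood, where it is listed at 0.

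Highest in the nasal library was Fth1, the heavy subunit of the iron store ferritin, at 32459 FPKM in the nasal and 3899 in the blood library. Its light-subunit partner Ftl1 was high in both, at 18838 against 10808. The CXCR2 ligand Cxcl2 ranked among the 10 highest genes of the nasal library and stood at 12756 FPKM in the nasal and 3.60 in the blood library. Cd14, the co-receptor that hands LPS to Toll-like receptor 4, was at 12196 FPKM in the nasal and 204 in the blood library, and Dusp1, a phosphatase that switches off p38 and JNK, at 8628 against 999.96. In blood the highest gene was S100a9, a subunit of calprotectin, at 52238 FPKM in blood and 12277 in nasal neutrophils. The actin-monomer binder Tmsb4x (24153 FPKM in blood and 5990.1 in nasal neutrophils), Retnlg, which encodes a resistin-like protein of neutrophils (20894 FPKM in blood and 4692 in nasal neutrophils), S100a11 (11622 FPKM in blood and 2379.7 in nasal neutrophils) and Tyrobp (10144 FPKM in blood and 2224 in nasal neutrophils) followed the same direction at very high levels. S100a8, the partner of S100a9, was listed at 0 in blood and at 29818 FPKM in nasal neutrophils. A 0 at such a gene can be a failed estimate, so no ratio is given for it.

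Transcripts of other cells were present on both sides and are given before the pathways, since they move with the tissue. Summed over 21 epithelial and secretory genes, the level was 5114 FPKM in nasal neutrophils, 7925 in DP and 2.63 in blood neutrophils. Olfactory neuron genes summed to 1472, 3708 and 5.39 FPKM in the same order. Together these 37 genes held 1.062% of all FPKM in nasal neutrophils, 1.82% in DP and 0.00121% in blood. These shares leave out mucosal genes that are not on the lists, such as Mup4 and Bpifb9a (1843 against 0.599 FPKM). Several of the largest ratios of the whole comparison belonged to secreted proteins of the nasal mucosa, such as the lipocalins Lcn11 (834 against 0.228 FPKM) and Mup4 (1060.1 against 0.0507). Bpifb9b, of the same mucosal class, was at 2401 against 0.772 and listed at 0 in DP. Of the C1q genes that mark macrophages, C1qa, C1qb and C1qc stood at 30.8, 80.9 and 53.3 FPKM in nasal neutrophils and were listed at 0 in blood. Of 10 tested macrophage genes 6 were 4-fold or more above blood, 3 of these listed at 0 in blood, beside 13.1% of all genes. Of the 4 at 1 FPKM or more in both libraries 0 were, and their median was 0.11, in place of 2.57 over the 10. Msr1, a scavenger receptor gene, was at 11.9 against 0.168 and Apoe at 469 against 150.1, while Cd68 (181 against 235) and Emr1, which encodes F4/80 (59.9 against 78.8), were somewhat lower.

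Red cell and platelet genes went the other way. The 5 globin genes in the tables, whose reads cannot be safely divided among near-identical copies, summed to 39.9 FPKM in the nasal library against 8515 in blood. The platelet chemokine gene Pf4 was at 1.84 against 9.57. Of lymphocyte genes, the T cell gene Cd3e was at 0.0576 against 0.428, under the filter on low values, and Cd3d at 1.89 against 4.44. Of 7 tested T and NK cell genes, 1 was 2-fold or more above blood and 2 as far below it. The shares of all genes were 33.5% and 12.8%. The higher gene was Ccl5 (156 against 10.5). The list's median was -0.91, and 0.05 over the 5 genes at 1 FPKM or more in both libraries. The B cell genes Cd79a and Cd79b were at 23.2 against 18.9 and 11.4 against 27.8 FPKM. The eosinophil granule genes Epx and Prg3 were listed at 0 in all 3 libraries, and the mast cell genes Mcpt4 and Fcer1a likewise. Mast cell and basophil genes were not absent as a list, since 3 of 11 were at 0 in nasal and 5 in blood neutrophils. Of these 11 genes 2 were tested (median 1.23), and Hdc held most of the summed level, at 1456 against 982 FPKM. Other genes of the eosinophil list were present. Of 6 tested, 3 were 2-fold or more above blood and 1 as far below it, beside 33.5% and 12.8% of all genes. The higher ones included the ribonuclease gene Ear2 (11.5 against 1.34) and Cd24a (310.0 against 139.8), which neutrophils also express. Monocyte and dendritic cell genes were higher in the nose, with 8 of 14 tested 4-fold or more above blood, beside 13.1% of all genes. Among the 8 were Ccr2 (15.8 against 0.757) and Ms4a6c (59.0 against 2.55), while Ly6c2 differed less (262 against 168). The part that any of these cells had in the pathways below was not tested.

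**Figure D2:**
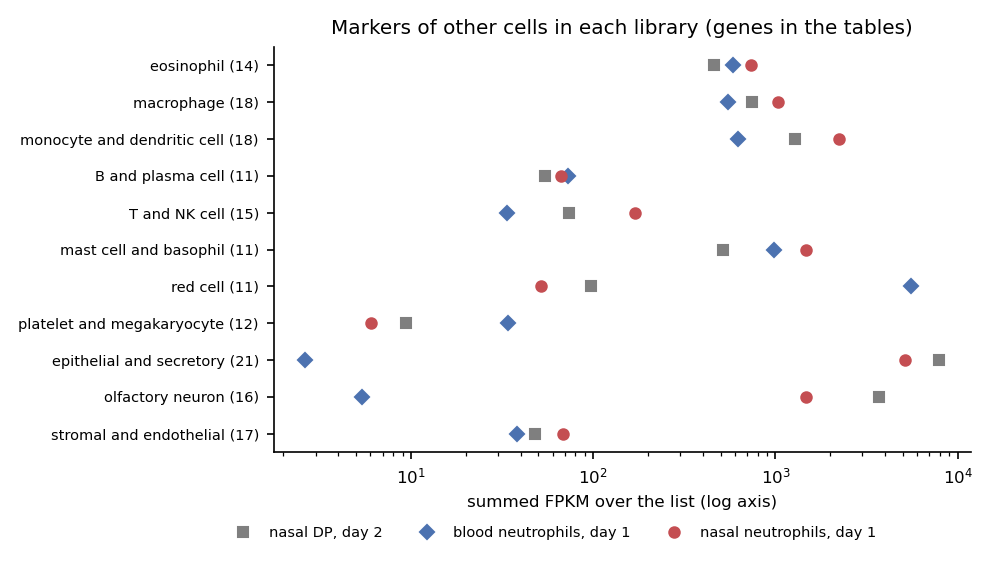
Summed FPKM of marker genes of other cell types in nasal neutrophils (circles), blood neutrophils (diamonds) and nasal DP cells (squares) on a log axis, 1 library each, with the number of list genes in the tables in brackets. Epithelial and olfactory genes lie at 5114 and 1472 FPKM in nasal neutrophils and under 6 in blood, and red cell genes at 5530.5 FPKM in blood and 51.8 in nasal neutrophils.

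Among the receptors that sense bacteria, the LPS co-receptor and the lipoprotein receptor were 4-fold or more above blood, and no other Toll-like receptor was. Of 25 listed genes, 21 were tested. At 4-fold 4 of these were higher and 1 lower, beside 13.1% and 3.23% of all genes. The median log2 ratio was -0.14, beside 0.41 for all genes. With no filter on low values these medians were 0.58 and 0.06, so the list's place among all genes rests on the filter. Besides Cd14, Tlr2, the receptor for bacterial lipoproteins, stood at 597 FPKM in the nasal and 82.2 in the blood library, 7.26-fold higher in the nose. Tlr4, the signalling receptor for LPS, was at 35.9 against 47.1, and its partner Ly96, which encodes MD-2, at 36.2 against 84.4, so neither was higher where the co-receptor was. Tlr8 was the gene 4-fold or more below blood (1.83 against 23.3), and Tlr13, a receptor for bacterial ribosomal RNA, was at 109.7 against 266. Downstream, Irak2 (146 against 14.8) and the inhibitory kinase-like gene Irak3 (133 against 27.8) were higher, while Irak4 (12.5 against 37.9), the first kinase of the complex, and the adaptor gene Tirap (13.7 against 39.8) were lower and Myd88 was within 2-fold (273 against 341).

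Inflammasome genes included higher and lower members. Nlrp3, the sensor that assembles on ion flux and cell damage, stood at 378 FPKM in the nasal and 37.7 in the blood library, 10.0-fold higher in the nose. Casp1, the protease that cleaves pro-interleukin-1 beta, was lower at 27.1 against 73.4, Gsdmd, which encodes the pore protein gasdermin D, stood at 43.5 against 72.6, and the adaptor Pycard at 10.8 against 4.51. Nlrp12, described as a brake on NF-kappaB signalling, was at 16.3 against 128 and Dfna5, which encodes gasdermin E, at 27.9 against 173, both over 6-fold lower in the nose. In all, 3 of 19 tested genes of this list were 4-fold or more above blood and 2 lower, beside 13.1% and 3.23% of all genes.

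Immunoreceptors that signal through ITAM adaptors or carry inhibitory motifs were among the groups with lower levels in the nose. Of 30 tested C-type lectin, Fc and TREM receptor genes, 12 were 2-fold or more below blood and 5 as far above it. The shares of all genes were 12.8% and 33.5%. At 4-fold 4 were lower and 4 higher, beside 3.23% and 13.1% of all genes (list median -0.40). The shared adaptor Tyrobp (DAP12) was 4.56-fold lower, while Fcer1g, the other common adaptor, was within 2-fold (2936 against 4344). Cd300lb (61.1 FPKM in the nasal and 1026 in the blood library) and Cd300ld (167 against 1013), 2 activating members of the CD300 family, were far lower in the nose, and the inhibitory member Cd300a was lower too (42.1 against 137). Sirpb1a, a DAP12-linked receptor of a multigene family whose copies can share reads, was at 56.3 against 442, and Clec12a, an inhibitory lectin that senses uric acid crystals, at 35.3 against 150.4. Clec7a, the beta-glucan receptor dectin-1, stood at 174 against 680.1. Higher in the nose were Trem1, an amplifier of Toll-like receptor responses (1146 FPKM in the nasal and 262 in the blood library), Clec4n, which encodes dectin-2 (444 against 70.2), and Fcgr1, the high-affinity IgG receptor (18.3 against 0.335). Lst1, a leukocyte membrane protein outside this list, was 14.8-fold lower (73.8 against 1094).

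Chemoattractant receptors included members well above and well below blood. Both receptors for ELR chemokines were lower in the nose: Cxcr2 stood at 350.0 FPKM in the nasal and 1444 in the blood library (4.12-fold lower) and Cxcr1 at 6.02 against 52.6. Receptors for end-stage attractants were within 2-fold: Fpr1, for bacterial formyl peptides, was at 986 against 717, C5ar1, for complement C5a, at 811 against 559, and Ltb4r1, for leukotriene B4, at 109 against 93.6. Ccrl2, which binds chemerin without signalling, was far higher at 2461 FPKM in the nasal and 4.70 in the blood library. Sensors of metabolites were also higher: Niacr1, the older name of Hcar2, a receptor for ketone bodies and niacin, stood at 2036 against 105, Gpr84, for medium-chain fatty acids, at 234 against 2.91, and the adenosine receptor genes Adora2a and Adora2b at 17.9 against 0.139 and 46.9 against 0.0830. Cxcr4, which holds neutrophils in bone marrow and is higher on aged cells, was at 50.7 against 17.3. Of 30 tested genes, 10 were 4-fold or more above blood and 3 lower, beside 13.1% and 3.23% of all genes. Among the 24 at 1 FPKM or more in both libraries these numbers were 5 and 3. For all 7223 genes at that level they were 449 and 253.

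Of 28 tested cytokine receptor genes 15 were within 2-fold, beside 53.7% of all genes. At 4-fold 5 were higher in the nose and 0 lower, not far from the 13.1% and 3.23% of all genes. The higher ones included Tnfrsf1b, which encodes TNF receptor 2 (253 FPKM in the nasal and 28.8 in the blood library), Il10ra, the ligand-binding chain of the interleukin-10 receptor (93.5 against 15.8), and the common gamma chain gene Il2rg (111 against 19.4). Tnfrsf1a, which encodes TNF receptor 1, was near equal (193 against 206). The chains of the GM-CSF receptor, Csf2ra (178 against 108) and Csf2rb (146 against 62.0), were somewhat higher while Csf3r was 1.95-fold lower.

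**Figure D3:**
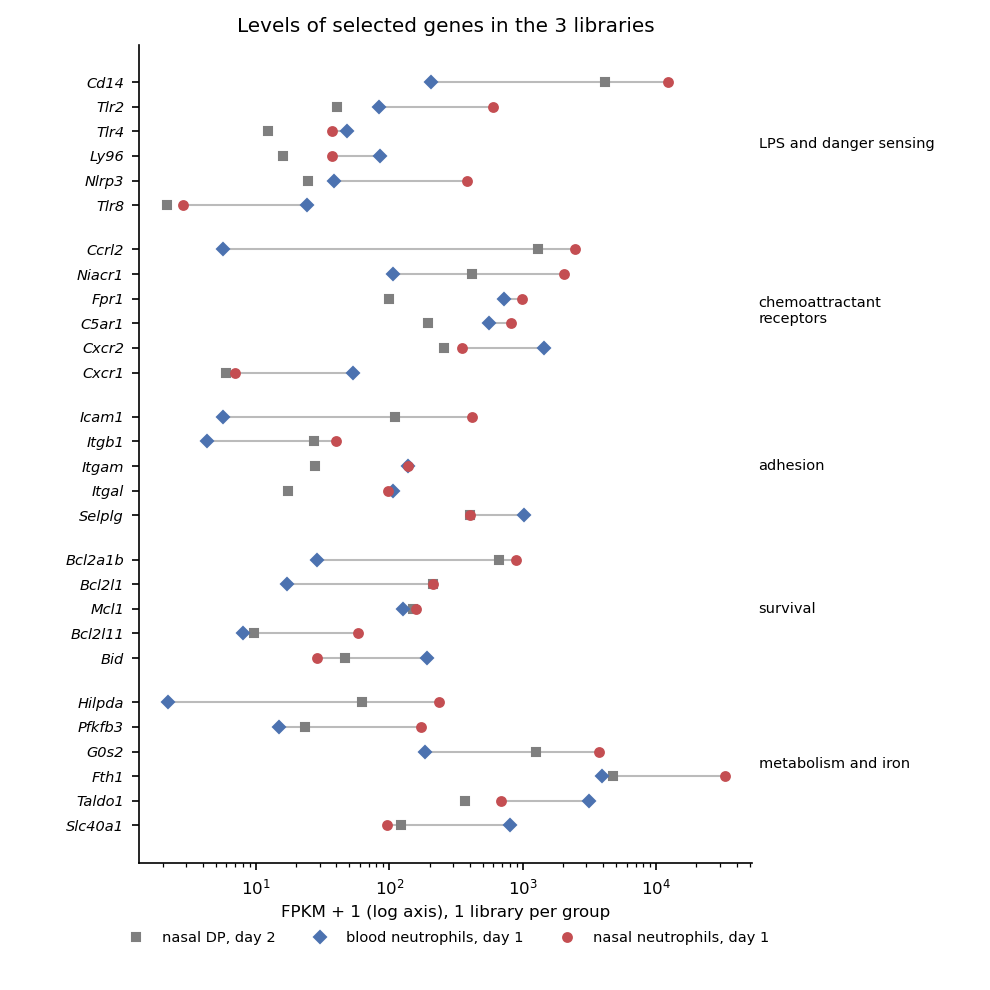
FPKM + 1 on a log axis for selected genes in nasal neutrophils (circles), blood neutrophils (diamonds) and nasal DP cells (squares), 1 library each, with a line joining the nasal and blood neutrophil values. Cd14, Ccrl2, Icam1, Bcl2a1b and Hilpda lie far to the right in the nose, Tlr4, Fpr1, Itgam and Mcl1 lie close together, and Tlr8, Cxcr1, Bid and Slc40a1 lie to the left.

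Feedback inhibitors of NF-kappaB were higher in the nose by wide margins, and the factor's own subunits differed among themselves. Nfkbia, which encodes the inhibitor I-kappaB alpha, stood at 3929 FPKM in the nasal and 109.9 in the blood library, 35.8-fold higher, and the related inhibitor genes Nfkbid (435 against 10.9) and Nfkbie (109 against 4.10) were higher by more than 20-fold. Of the subunits, Rela was 3.25-fold higher (79.8 against 24.6), Nfkb1 1.47-fold (16.2 against 11.1) and Nfkb2 24.6-fold (94.4 against 3.84). The I-kappaB kinase genes Ikbkb (13.2 against 14.7), Chuk (7.36 against 4.42) and Ikbkg (8.04 against 12.8) were within 2-fold, whereas the related kinase gene Ikbke was at 126 against 0.358. In this list 14 of 24 tested genes were 4-fold or more above blood and 0 lower (median 3.28), beside 13.1% and 3.23% of all genes.

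Some chemokine, cytokine and inhibitor genes 4-fold or more above blood hold a kappaB motif, GGGNN followed directly by TTTCC on either strand, in the 250 bases before their start. Stretches of 6 of them are shown, picked after their values were seen, to show where the motif lies. Ccl3, Cxcl10, Nfkbid and Nfkbie, which were higher too, have no match in that window, and higher genes of other kinds, such as the keratin gene Krt23 and Elf3, an epithelial transcription factor gene, have one. The stretches are from the RefSeq promoter table, build GRCm38.p6, printed 5′ to 3′ along the gene's strand, with the motif in capitals.
Cxcl2 (chr5:90903762-90903870, plus strand): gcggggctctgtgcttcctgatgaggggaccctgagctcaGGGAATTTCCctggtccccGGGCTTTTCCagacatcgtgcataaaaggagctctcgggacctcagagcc
Cxcl3 (chr5:90785988-90786077, plus strand): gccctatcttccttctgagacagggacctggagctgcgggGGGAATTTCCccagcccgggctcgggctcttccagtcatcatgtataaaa
Cxcl1 (chr5:90891116-90891223, plus strand): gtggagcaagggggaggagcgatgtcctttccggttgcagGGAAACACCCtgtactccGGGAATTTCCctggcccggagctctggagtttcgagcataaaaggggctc
Nfkbia (chr12:55492648-55492716, minus strand): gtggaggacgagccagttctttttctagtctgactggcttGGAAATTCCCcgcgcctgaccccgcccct
Tnfaip3 (chr10:19015411-19015462, minus strand): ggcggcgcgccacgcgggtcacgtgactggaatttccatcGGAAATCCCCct
Il6 (chr5:30013030-30013113, plus strand): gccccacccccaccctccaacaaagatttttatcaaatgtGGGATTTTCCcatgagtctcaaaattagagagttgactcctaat
In Cxcl2 the 2 matches begin 97 and 78 bases before the annotated start, and in Cxcl1, a neighbour on the same chromosome, 89 and 71 bases before it. The single match of Cxcl3 begins 73 bases before the start, that of Il6 44 bases and that of Nfkbia 29 bases. Cxcl1 stood at 90.1 FPKM in nasal neutrophils and Il6 at 20.1, and both were listed at 0 in blood. Tnfaip3, which encodes the ubiquitin-editing inhibitor A20, was at 633 against 2.32.

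Motif shares were counted over 250 bases before and 50 after the start, a wider window than that of the stretches. Over all promoters in that table the motif is rare. It was found in 26 of 1090 promoters of genes 4-fold or more above blood (2.39%), in 1 of 219 of genes 4-fold or more below blood (0.457%), in 1.69% of 8444 promoters of tested genes and in 1.62% of all 27025. The EGR motif GCGNGGGCG was in 11.7% of promoters of higher genes, 3.20% of lower genes and 9.88% of tested genes (5.55% of all), and the AP-1 motif TGANTCA in 8.81%, 7.76% and 5.66% (7.93% of all). For the C/EBP form TTGCNNAA the shares were 9.54%, 12.8% and 8.76% (10.8% of all) and for the interferon-response form, GAAANN followed directly by GAAA, 3.30%, 5.02% and 3.46% (3.49% of all). The CREB form TGACGTCA was in 3.39%, 1.83% and 3.34% (1.88% of all) and the hypoxia form TACGTG in 2.75%, 2.74% and 3.85% (3.16% of all). Each was searched on both strands and may overlap another, and a match is a run of letters, not a shown binding site.

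Immediate early transcription factor genes, known to respond within minutes of a signal, were higher in the nose almost throughout. Of 23 tested AP-1 and immediate early genes, 19 were 4-fold or more above blood, 4 of these listed at 0 in blood, and 0 lower (median 3.39). The shares of all genes were 13.1% and 3.23%. Fos was at 2214 FPKM in the nasal and 209.7 in the blood library, Jun at 303 against 6.32 and Junb at 5641 against 459, and the nuclear receptor gene Nr4a1 at 1138 against 12.4. Fos and Junb were abundant in blood too, and Jun and Nr4a1 were not. Of 29 tested myeloid transcription factors 12 were 4-fold or more above blood and 0 lower, beside the same shares of all genes. Cebpb, the C/EBP factor of emergency granulopoiesis, stood at 208 FPKM in the nasal and 2.71 in the blood library, 76.7-fold higher, while Cebpd (62.8 against 53.7), Klf6 (185 against 167) and Fli1 (29.4 against 31.5) were near equal. Bhlhe40, a repressor linked to cytokine output, was at 357 against 2.94, the NF-kappaB partner Ets2 at 268 against 16.2 and Klf2, which restrains leukocyte activation, at 204 against 17.4. Nfe2 was lower by less than 4-fold (65.4 against 184). Bcl6, a repressor of inflammatory genes that is not on the list counted above, was far lower (1.73 against 31.8). The clock gene Per1 stood at 25.9 against 0.711 and Arntl, which encodes BMAL1, at 1.498 against 0.526, levels too low in blood for a fold.

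In signalling, inducible phosphatases and inhibitors were higher and kinases went both ways. Of 24 tested genes of the MAP kinase list 10 were 4-fold or more above blood and 1 lower, beside 13.1% and 3.23% of all genes. Dusp2, Dusp5 and Dusp16, phosphatases of MAP kinases, stood at 196 against 0.385, 94.8 against 0.465 and 69.0 against 7.07 FPKM, but Dusp6, which acts on ERK, was lower at 44.1 against 104. Mapk14, which encodes p38 alpha, was 4.29-fold lower in the nose (17.3 against 74.3), and Mapkapk2, the kinase below it that stabilises cytokine mRNA, was 11.5-fold higher (52.1 against 4.53). Of the cytokine signalling genes, Socs3, the inhibitor of interleukin-6 and G-CSF receptors, was at 1018 FPKM in the nasal and 58.8 in the blood library, Cish at 49.3 against 0.122 and the kinase gene Pim1 at 892 against 7.34. Stat3 was within 2-fold (133 against 90.2), and Stat4 was 7.25-fold lower (4.53 against 32.8). Some genes whose products destroy cytokine mRNA were higher. Of 14 tested genes of mRNA decay and RNA binding, 5 were 4-fold or more above blood and 1 lower. The shares of all genes were 13.1% and 3.23%. The list's median, 0.455, was near the 0.41 of all genes. Zfp36, which encodes tristetraprolin, was at 5423 FPKM in the nasal and 400.5 in the blood library, Zfp36l1 at 274 against 26.9 and the ribonuclease gene Zc3h12a at 133 against 4.54.

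Chemokines had the highest medians of the pathway lists, 4.23 for CC and 3.55 for CXC members. Of 13 listed CXC chemokine genes 11 were tested and 10 were 4-fold or more above blood, though only 2 reached 1 FPKM in both libraries. The share of all genes 4-fold or more above blood was 13.1%. Cxcl3 stood at 722 FPKM in the nasal and 0.147 in the blood library and Cxcl10, the interferon-induced attractant of T cells, at 411 against 2.85. Of CC chemokines 10 of 12 tested were 4-fold or more above blood, 6 of those at 0 in blood, beside the same 13.1% of all genes. Ccl3 (4615 FPKM in the nasal and 1.89 in the blood library) and Ccl4 (6729 against 8.36) held most of the summed level. Ccl6 alone on the list was lower, at 878 FPKM in the nasal and 6275 in the blood library, 7.15-fold lower in the nose. Ccl12 (65.6 FPKM in nasal neutrophils) and Ccl7 (56.8), known as products of macrophages and stroma as well, were listed at 0 in blood, as were the C1q genes.

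Of the interleukin-1 family, Il1a stood at 2575 FPKM in the nasal and 0.154 in the blood library, a far wider gap than that of Il1b, at 7513 against 2322, which was 3.24-fold higher and already abundant in blood. Both antagonists were higher in the nose as well: Il1rn, the secreted receptor antagonist, was at 2146 FPKM in the nasal and 370.5 in the blood library and the decoy receptor Il1r2 at 1996 against 566. Il1f9, which encodes interleukin-36 gamma, was near equal at 1301 against 1255. Among other cytokines, Tnf stood at 373 FPKM in the nasal and 1.89 in the blood library, Il23a, the specific subunit of interleukin-23, at 261 against 0.0589, and Csf3, which encodes G-CSF, at 188 FPKM in the nasal library and at 0 in blood. Csf1, the macrophage growth factor, was at 272 FPKM in the nasal and 11.8 in the blood library, Il12a at 30.9 against 0.908 and Osm, of the interleukin-6 family, at 835 against 16.4. Ebi3, a subunit of interleukins 27 and 35, was near equal (147 against 136), while Il15 (28.4 against 83.0), Il16 (36.1 against 149) and Tnfsf13b, which encodes BAFF (9.46 against 39.9), were lower. Il17a, Il13 and Il17f were listed at 0 in both neutrophil libraries. Over the 20 tested of 36 listed cytokines, 12 were 4-fold or more above blood and 1 lower, beside 13.1% and 3.23% of all genes. At 1 FPKM or more in both libraries 3 of 9 were 4-fold higher, beside 449 of 7223 genes at that level.

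Interferon-stimulated genes were past 4-fold about as often as all genes. Of 39 tested, 5 were 4-fold or more above blood and 1 lower, against 13.1% and 3.23% of all genes, with a median of 0.52. Isg15, a ubiquitin-like modifier, was at 812 FPKM in the nasal and 198 in the blood library and Irf7 at 329.8 against 138, but Ifit1 (144 against 108), Ifit3 (204 against 225) and Oas2 (26.6 against 25.9) were near equal. Ifitm1, of the membrane proteins that block virus entry, was 4.23-fold lower (1854 against 7837), while its neighbour Ifitm3 was not (1579 against 1723). Antigen presentation genes were higher for class II, with H2-Ab1 at 313 against 50.6 and Cd74 at 1115 against 227, and within 2-fold for the class I genes H2-K1 (492 against 274), H2-D1 (2571 against 3121) and B2m (3846 against 4608). Which cells the class II transcripts came from was not tested.

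Lipid mediator genes went in both directions. Ptgs2, the inducible cyclooxygenase, was at 738 FPKM in the nasal and 2.01 in the blood library, and Ptges, the prostaglandin E synthase next in line, at 6.48 against 0.218. The 5-lipoxygenase gene Alox5 (78.9 against 198), its partner Alox5ap (1495 against 3669) and Pla2g7, which degrades platelet-activating factor (309.6 against 1109), were all more than 2-fold lower, and Lta4h, the enzyme that makes leukotriene B4, was near equal (36.3 against 38.1). Cyp4f18, which inactivates leukotriene B4, was 2.90-fold lower (377 against 1094). Genes of coagulation, matrix and the plasminogen system were higher in 16 of 20 tested at 4-fold, 3 of those at 0 in blood, beside 13.1% of all genes. At 1 FPKM or more in both libraries 5 of 7 were, beside 449 of 7223 genes at that level. The 16 include F3, the tissue factor gene (113 against 0.143), Plaur, the urokinase receptor gene (1588 FPKM in the nasal and 226 in the blood library), and F10, of coagulation factor X (44.1 against 1.73). Among suppressive molecules, Cd274, which encodes PD-L1, stood at 409 FPKM in the nasal and 12.3 in the blood library, and Nt5e, which makes adenosine, at 20.1 against 1.47. Nos2, the inducible nitric oxide synthase gene, was at 30.3 against 0.175 and Havcr2, which encodes TIM-3, at 17.0 against 0.635, and Arg1 was at 22.2 FPKM in the nose and 0 in blood. In all 8 of 17 tested genes of this list were 4-fold or more above blood, beside 13.1% of all genes. Arg2 was near equal (431 against 508), and so were Entpd1 (187 against 222) and Lgals9 (214 against 269), while the costimulatory gene Cd86 was lower (7.82 against 31.5). The list's median was 1.59 over 17 tested genes and -0.23 over the 11 at 1 FPKM or more in both libraries.

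**Figure D4:**
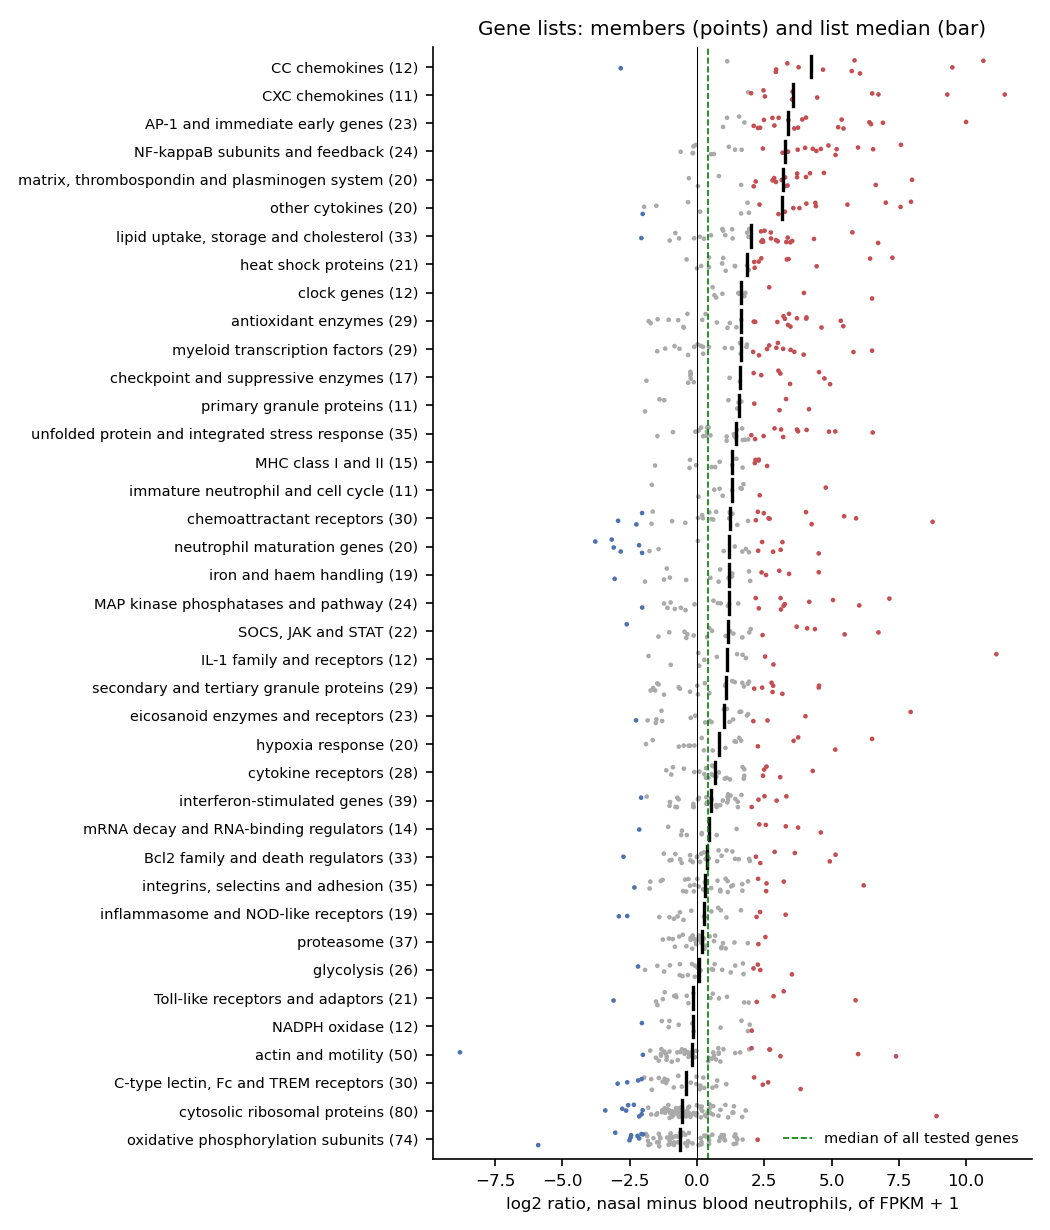
Log2 ratio (nasal minus blood neutrophils, of FPKM + 1) of the tested members of each gene list as points, with the list median as a bar, the number of tested members in brackets, red and blue for members 4-fold or more above or below blood, and a dashed line at the median of all tested genes, 0.41. CC and CXC chemokines and immediate early genes lie at the top, with medians of 4.23, 3.55 and 3.39, and oxidative phosphorylation subunits and ribosomal proteins at the bottom, with medians of -0.62 and -0.56.

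Granule protein genes did not move as 1 group. Several that are made in bone marrow precursors and stored in specific granules were higher in the nose: Ltf, which encodes lactoferrin, stood at 1324 FPKM in the nasal and 56.6 in the blood library, 23.4-fold higher, Ngp at 3993 against 562, Lcn2 at 3577 against 937, Camp, the cathelicidin gene, at 1055 against 398 and Chi3l3 at 449 against 48.9. Mmp9, the gelatinase of tertiary granules, was near equal at 581 against 567. Others were lower: Mmp8, the neutrophil collagenase, was at 508 FPKM in the nasal and 1369 in the blood library, Pglyrp1, which binds peptidoglycan, at 814 against 2688, Slpi, the leukocyte protease inhibitor, at 2537 against 7863, and the lysozyme gene Lyz2 at 2328 against 6120.4. Of 29 tested genes of secondary and tertiary granules, 16 were 2-fold or more above blood and 6 as far below it (median 1.07). The shares of all genes were 33.5% and 12.8%. Of the primary granule genes, Mpo (7.37 FPKM) and Elane (8.91) were low in the nose and at 0 in blood. Genes of dividing precursors were low in both libraries, with Mki67 at 0.821 against 0.497 and Top2a at 0.907 against 0.0306 FPKM, while Stmn1, a tubulin binder of dividing cells that other cells also express, was at 69.9 against 1.57. In DP, Ltf was at 186 FPKM, Ngp at 267 and Lcn2 at 70.2.

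The maturation list held genes on both sides, with a median of 1.20. Among the lower ones, Stfa2l1, of the stefin cluster of cysteine protease inhibitors, stood at 89.5 FPKM in the nasal and 1242 in the blood library, 13.9-fold lower, and BC100530 of the same cluster was at 23.7 against 221; the copies of this cluster can share reads. S100a6 (249 against 2135) and Anxa1, which encodes a resolution-phase annexin (1086 against 3700.1), were lower by 8.58 and 3.41 fold. Together with Retnlg, Ccl6 and Cxcr2, 6 of 20 genes on the maturation list were 4-fold or more below blood, and 6 were 4-fold or more above blood, among them Ltf, Ngp and Chi3l3. The shares of all genes were 3.23% below and 13.1% above.

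**Figure D5:**
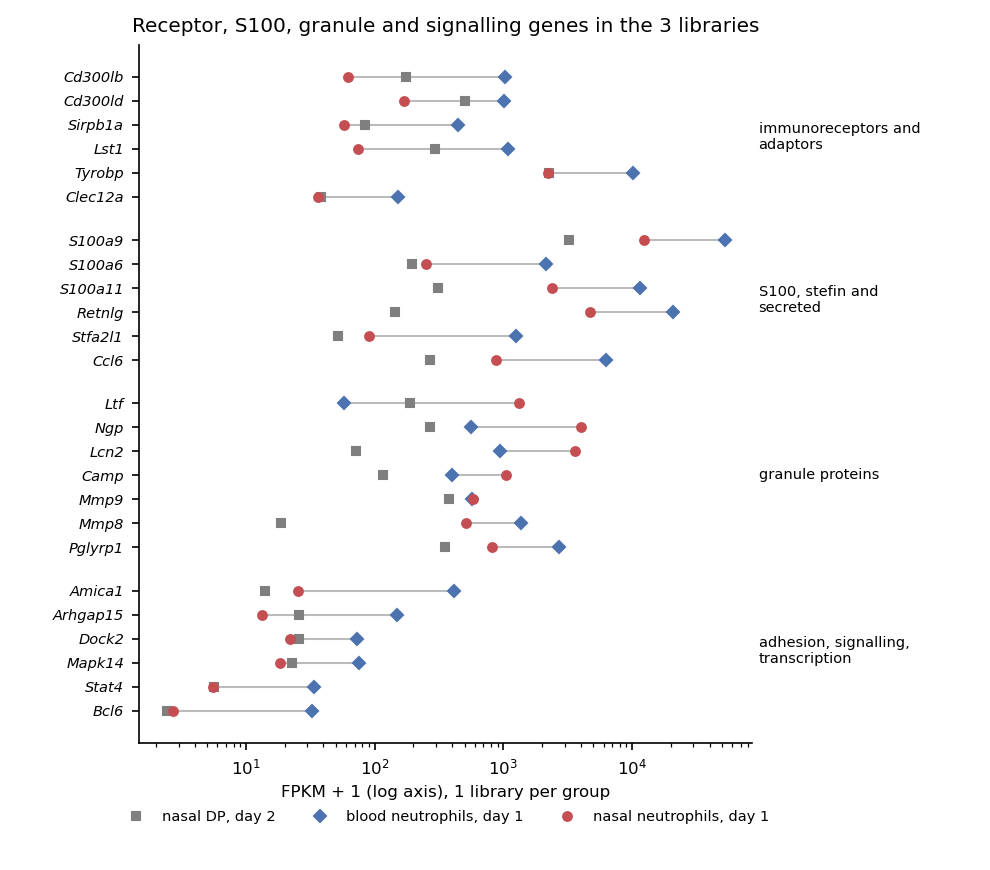
FPKM + 1 on a log axis for selected receptor, S100, granule and signalling genes in nasal neutrophils (circles), blood neutrophils (diamonds) and nasal DP cells (squares), 1 library each. The receptor and S100 genes shown lie left of their blood values in both nasal libraries, whereas Ltf, Ngp, Lcn2 and Camp lie to the right in nasal neutrophils.

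Subunits of the oxidase that makes superoxide went in both directions. Cybb, which encodes the catalytic subunit gp91phox, was 3.82-fold higher (89.1 FPKM in the nasal and 23.3 in the blood library) and Ncf1 (p47phox) 3.16-fold (318 against 100.4), while Ncf4 (p40phox) was near equal (344 against 375) and Rac2, the GTPase that activates the complex, was lower (524 against 1067). Of 12 tested genes of that list 4 were 2-fold or more above blood and 4 lower, beside 33.5% and 12.8% of all genes. Antioxidant genes were more often higher: beside 13.1% and 3.23% of all genes, 14 of 29 tested were 4-fold or more above blood and 0 lower. These included targets of the stress factor NRF2, such as Txnrd1, a thioredoxin reductase (64.1 FPKM in the nasal and 1.64 in the blood library), Gclm, of glutathione synthesis (72.6 against 3.39), Slc7a11, the cystine importer (83.5 against 5.45), Prdx1 (196 against 10.8) and Hmox1, which breaks down haem (447 against 40.8). Nfe2l2, the gene of NRF2 itself, was near equal (180.4 against 144). Gpx1 (531 against 1845), Txn1 (229.9 against 636) and Txnip, an inhibitor of thioredoxin (158 against 525), were lower. The metallothionein gene Mt1 stood at 46.7 against 0.101, and at 223 FPKM in DP. DP also held more epithelial transcripts, and which cells the Mt1 transcripts came from was not tested.

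Among adhesion genes, the beta-2 integrins of arrest were near level and the fibronectin receptor was higher. Selplg, the selectin ligand PSGL-1, was 2.55-fold lower in the nose (399 FPKM in the nasal and 1017 in the blood library). The beta-2 integrin genes Itgal (97.4 against 106), Itgam and Itgb2 (486 against 696) were within 2-fold. Itga5 (43.1 against 6.36) and Itgb1 (38.8 against 3.26), which together form the fibronectin receptor, were 6.78-fold and 11.9-fold higher, while Itga4, the other partner of Itgb1 on leukocytes, was 3.92-fold lower (3.98 against 15.6). Icam1 was at 412 FPKM in the nasal and 4.64 in the blood library. Amica1, the older name of Jaml, which binds the epithelial receptor CAR during transmigration, was 16.9-fold lower (24.5 against 414).

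Of 50 tested motility genes 28 were within 2-fold, close to the share of all genes, but the rest leaned lower. At 2-fold 9 were higher and 13 lower, beside 33.5% and 12.8% of all genes. The list's median was -0.18, beside 0.41 for all genes. Actb (7660.2 against 4387) and Actg1 (1897 against 1097) were somewhat higher, and the Rac activator Dock2 (20.8 against 71.8) and Arhgap15, a Rac inactivator (12.3 against 149), were lower. Marcksl1, a membrane-linked actin regulator, was 64.7-fold higher at 3323 FPKM in the nasal and 51.4 in the blood library and Vasp, which extends actin filaments, 6.50-fold (1007 against 155). Actr3 was listed at 0 in nasal neutrophils with 448 FPKM in blood and 218 in DP, and Gsn at 0 in blood, so neither ratio is given. In all 91 genes, S100a8 and Gsn among them, were listed at 0 in blood and 19 in nasal neutrophils with 10 FPKM or more in both other libraries.

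The Bcl2 family list was past 4-fold about as often as all genes, with survival genes of the A1 and Bcl-xL type among the higher members and the apoptosis mediator Bid lower. Bcl2a1b and Bcl2a1d, near-identical copies of the NF-kappaB-driven survival gene A1 that can share reads, stood at 882 FPKM in the nasal and 27.9 in the blood library and at 578 against 15.3. Bcl2l1, which encodes Bcl-xL, was 13.1-fold higher (212 against 16.2), whereas Mcl1, the factor on which neutrophil survival depends most, was within 2-fold (158 against 126). Pro-death genes were not uniformly lower. Bcl2l11, which encodes BIM, was 8.30-fold higher (57.6 against 6.94), Bax 4.78-fold higher (77.8 against 16.3) and Bid 6.85-fold lower (27.7 against 190.1). On this list 6 of 33 tested genes were 4-fold or more above blood and 1 lower, beside 13.1% and 3.23% of all genes, with a median of 0.38.

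In glucose metabolism several genes of glucose entry, flux control and lactate export were higher, and genes of the middle steps were near equal. Slc2a1, which encodes the transporter GLUT1, was at 201 FPKM in the nasal and 41.3 in the blood library, the regulator Pfkfb3 at 172 against 13.99, the liver-type phosphofructokinase Pfkl at 48.8 against 8.75 and Slc16a3, the lactate exporter, at 515 against 157. Ldha (450.2 against 409.9), Gapdh (514 against 544) and Pgk1 (134 against 132) were near equal. The other regulator Pfkfb4 was lower (39.9 against 155), as was the transporter Slc2a3 (149 against 415). Taldo1 (688 against 3146) and Pgd (172 against 346) of the pentose phosphate pathway were lower by 4.57 and 2.02 fold. The glycolysis median was 0.08 over 26 genes, and its sign turned when ratios were centred on the median of all genes, with upper-quartile scaling, with length correction and at a mean of 5 FPKM or more. Of 20 tested hypoxia genes 10 were 2-fold or more above blood and 2 as far below it, beside 33.5% and 12.8% of all genes. Hif1a, which encodes the hypoxia-inducible factor subunit, was 2.78-fold higher (90.8 against 32.7), its prolyl hydroxylase gene Egln3 3.21-fold (26.7 against 8.32) and Ero1l, an oxidase of protein folding, 13.4-fold (111 against 8.31). Ddit4, an inhibitor of mTOR, was at 66.2 against 0.908 and Vegfa at 2.35 against 0.0752, whereas Bnip3 (117 against 139.6), Vhl (8.27 against 8.93) and Ndrg1 (15.98 against 22.9) were within 2-fold.

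Beside 13.1% and 3.23% of all genes, 16 of 33 tested lipid storage and cholesterol genes were higher at 4-fold and 1 lower (median 2.00). Among them were Hilpda and G0s2, which encode inhibitors of the triglyceride lipase ATGL, with Hilpda at 234 FPKM in the nasal and 1.21 in the blood library and G0s2 at 3733 against 183. Dgat2, the last enzyme of triglyceride synthesis, was 8.14-fold higher (375 against 46.0), while the lipase itself, Pnpla2, was at 36.5 against 58.6 and the droplet coat gene Plin2 was within 2-fold (71.6 against 126). Sterol synthesis genes were higher at low levels: Fdft1 was at 14.9 against 2.05 and Fdps at 27.1 against 1.82. Of list genes at 1 FPKM or more in both libraries, 5 of 19 were 4-fold or more above blood, beside 449 of all 7223 genes at that level. In iron handling, ferritin heavy chain was 8.33-fold higher and Slc40a1, which encodes the iron exporter ferroportin, was 8.42-fold lower (95.5 FPKM in the nasal and 804 in the blood library).

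Genes of mitochondrial respiration and of the ribosome had the lowest medians of the pathway lists, -0.62 and -0.56. For oxidative phosphorylation 24 of 74 subunits were 2-fold or more below blood and 11 as far above it, and for ribosomal proteins 22 and 8 of 80. The shares of all genes were 12.8% below and 33.5% above. Summed levels were 4208 FPKM in nasal and 8370.5 in blood neutrophils for respiration, and 7414 and 12909 for ribosomal proteins. Single subunits differed: Cox6b1 was at 94.4 against 398 and Ndufa3 at 78.1 against 449, but Atp5b was at 155 against 114 and Ndufa4 at 97.7 against 93.8. These lists hold many short transcripts, and short transcripts were lower in the nose in general, with a median log2 ratio of -0.31 over 481 genes under 700 nt and 0.55 over 3721 genes of 1500 to 3000 nt. Within length bins, the medians of these lists became -0.51 and -0.26, beside 0.41 for all genes.

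Stress genes of protein folding were higher. Of 35 tested genes of the unfolded protein and integrated stress responses, 12 were 4-fold or more above blood and 0 lower. The shares of all genes were 13.1% and 3.23%. Sqstm1, which encodes the autophagy receptor p62, was 13.6-fold higher (1066 FPKM in the nasal and 78.1 in the blood library), Ppp1r15a, which restarts translation, was at 764 against 7.28 and the chaperone Hspa5 was 3.21-fold higher (539 against 168). The death-linked factor gene Ddit3, which encodes CHOP, was within 2-fold (79.5 against 149), and its target Chac1 was lower (2.50 against 8.70). Heat shock genes were higher for Hspa1a and Hspa1b, a pair of near-identical copies (209 against 0.367 and 99.4 against 0.163), and less so for Hspa8 (713 against 373) and Hsp90aa1 (51.5 against 12.8). Proteasome genes were level, with 30 of 37 within 2-fold, beside 53.7% of all genes. Among the 30 were the immunoproteasome gene Psmb8 (191 against 164) and its constitutive counterpart Psmb5 (75.9 against 66.8).

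In DP, a day later in the same tissue, Cxcl2 was at 2025 FPKM, Cd14 at 4118, Ccl3 at 2289.7 and Il1a at 377, all lower than in nasal neutrophils and above blood. Cxcr2 was at 254 and S100a9 at 3233, lower than in both. DP differ from nasal neutrophils in gate and day, which cannot be told apart.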

How the data were processed

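RNA of sorted cells was sequenced in 3 libraries, 1 per group, prepared with a low-input kit per the labels' protocols. The submitters' processing notes name TopHat2 2.0.8, Bowtie2 2.1.0, Cufflinks 2.1.1 and the mouse build mm9. The values deposited by the authors were read as FPKM per gene, because Cufflinks reports that unit and the values have its scale; the file headers do not name it. No source used here gives the annotation, the strand setting or the handling of reads with several matches. Values under 1e-06 FPKM were set to 0. Ratios are log2(FPKM + 1), nasal minus blood, which understate the change of low genes, over genes with a mean of 1 FPKM or more across the 3 libraries, whereas a stated N-fold is the ratio of the deposited values of a gene at 1 FPKM or more in both. The call at 4-fold is a log2 ratio of 2 or more. No test was run, because each group has 1 library, and whether a library holds several animals is not stated. Any batch and the tissue cannot be told apart. Relative depth came from the spacing of low values among genes of 1500 nt or more, with lengths from GENCODE M21 matched for 98.7% of tested genes. Promoters of 250 bases before to 50 after the start came from RefSeq on GRCm38.p6, matched by symbol for 8444 tested genes, and no mm9 coordinate was used. Python 3.11.15, numpy 2.4.6 and pandas 2.3.3 were used, and scripts were tested on simulated data.

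The rule of the comparison uses sample labels only, but it, the 51 gene lists and the motifs were chosen with earlier results of these data known. The lists held 1223 matched genes, and 12 further listed symbols were not matched and were not analysed here. The naming rule took preset key members of each list, up to 4 further members of each with the widest ratio (mean of 5 FPKM or more over the 2 neutrophil libraries, above 0 in both), the 15 highest and 15 lowest ratios under the same limits, and the 10 highest genes of each neutrophil library. Chosen after their values were seen were Actr3, Adora2a, Anxa1, Arg2, Arhgap15, Atp5b, B2m, Bcl6, Bnip3, C1qc, Ccl12, Ccl7, Cd300a, Cebpd, Chac1, Chuk, Clec12a, Clec7a, Cox6b1, Cxcr1, Dgat2, Dock2, Dusp16, Dusp6, Ebi3, Elf3, Entpd1, Epx, Fcer1a, Fcer1g, Fdft1, Fdps, Fli1, Gapdh, Gpx1, Gsdmd, Gsn, Ifit1, Ifit3, Ifitm3, Ikbkb, Ikbkg, Il13, Il15, Il16, Il17a, Il17f, Il1f9, Irak4, Klf6, Krt23, Lgals9, Ltb4r1, Ly96, Lyz2, Mapk14, Mcpt4, Myd88, Ncf4, Ndrg1, Nfe2, Nfe2l2, Nfkb2, Nfkbie, Oas2, Pgd, Pgk1, Pglyrp1, Pnpla2, Prg3, Ptges, Rac2, S100a6, Slc16a3, Slc2a3, Slc7a11, Sqstm1, Tirap, Tlr13, Tnfrsf1a, Tnfsf13b, Txn1, Txnip and Vhl. Alternatives were the pseudocount, the filter, the treatment of 0, the scaling, transcript length and the fold threshold.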

Additional observations from a re-analysis of the deposited data

How the results depend on the processing

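The number of genes at least 4-fold higher in nasal neutrophils, 1408 as reported, was 2886 with a pseudocount of 0.1 FPKM, 470 with a pseudocount of 5 and 3595 at a 2-fold threshold. It was 449 over genes at 1 FPKM or more in both neutrophil libraries, an alternative chosen after seeing the data that tests fewer genes. The number at least 4-fold lower, 346 as reported, was 215 with a pseudocount of 5, 609 with ratios centred on the median of tested genes and 1372 at 2-fold. Centring moved the share of higher genes among all past 4-fold from 80.3 to 61.4%. Under the remaining alternatives both numbers stayed within 1.5 times the reported ones, and the median of all tested genes moved by less than 0.5 on the log2 scale under those run. Over genes at 1 FPKM or more in both libraries the medians of 5 lists changed sign: T and NK cell, inflammasome and eicosanoid genes, stromal and endothelial genes (-0.028 in place of 1.93) and checkpoint and suppressive enzymes (-0.23 in place of 1.59). With ratios centred on the median of tested genes, the medians of 5 lists changed sign: inflammasome genes, adhesion genes, Bcl2 family genes, glycolysis and the proteasome. At a mean of 5 FPKM or more the medians of eosinophil, T and NK cell, inflammasome, eicosanoid and glycolysis genes changed sign, and with no filter that of Toll-like receptor genes. Fewer changed under the other alternatives: eosinophil genes over genes above 0 in both libraries, B and plasma cell genes with rescaled sums, glycolysis and the proteasome with upper-quartile scaling, and glycolysis within length bins. No paired analysis was possible because each group has 1 library, and no library could be left out for the same reason. The nasal library rests on about 4 times fewer fragments, so low nasal values are less precise than low blood values.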
